A study of Mus musculus with 25 samples.

Results

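The genes described here are 39 enzymes, carriers and binding proteins of fatty acid oxidation, chosen by symbol from a list made for this description, among 55487 genes counted in mouse Achilles tendon. That list was made with earlier results of these data known, so its shares set beside all genes are descriptive only. All 39 symbols were found and all 39 passed the filter on low counts, as did 19155 of the 55487 genes. RNA was sequenced from tendons of mice aged 3 months in 25 libraries of 4 groups: conditional AMPK knock-outs (AMPKcKO, written cKO) with a running wheel (6 libraries), wild type (WT) with a wheel (6), cKO with cage activity (6) and WT with cage activity (7). Each group held both sexes, with 3 female and 3 male libraries, or 4 female and 3 male in WT cage. The library names of cKO cage male replicate 3 and WT cage female replicate 4 carry another prefix than the rest, taken here as another library project. Neither is a runner, so project and activity are partly confounded. By the title of the series, the subunit lost is AMPKα1, which Prkaa1 encodes. The labels do not say which promoter drives the Cre recombinase, how far the mice ran or whether tendons were pooled, and they name no separate animal for each library, so p-values measure the spread between libraries.

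Fatty acids are taken up by carriers such as CD36, bound in the cytosol, activated to acyl-CoA and passed into mitochondria by the carnitine shuttle. There each round of beta oxidation removes an acetyl unit through dehydrogenation, hydration, a second oxidation and thiolysis, and the electrons pass through the electron transfer flavoprotein to the respiratory chain. AMPK is known to promote this flux in muscle by lowering malonyl-CoA, the inhibitor of the carnitine palmitoyltransferase at the gate. The pathway is a main source of energy in skeletal muscle and heart.

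In running mice, 6 of the 39 genes were called lower than in cage mice over both genotypes, beside 0.814% of all genes, and none was called higher, beside 0.611% of all genes. They were Acot2, Decr1, Eci1, Acaa2, Acadm and Cd36, with log2 fold changes between -0.93 and -0.46. No gene of the 39 was called between genotypes at cage activity or in runners, and none had a called interaction of genotype and running. The share of all genes called was likewise 0.0% in each of these comparisons. Of the 39, 25 rose with the level of skeletal muscle RNA in the tendon sample, beside 17.1% of all genes, and 2 fell with it, beside 14.0% of all genes.

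Library totals ran from 13193228 to 45724243 counts. Markers of tendon cells were all counted, with summed levels of 7505 to 19438 CPM in runners and 5165 to 25157 CPM in cage libraries (CPM are counts per 1000000 counts of a library, after scaling). The 25 genes of fast and slow muscle fibres took 1.82% to 8.71% of a library's counts in runners and 2.11% to 7.34% in cage mice. The mitochondrial ribosomal RNAs took 13.9% to 28.7% in runners and 16.6% to 31.8% in cage mice. WT running female replicate 2 and WT running male replicate 3 stood apart on the second principal component, at 112 and 83.1 against -26.8 to 7.63 elsewhere. Reporter counts went against the label in 2 libraries. No Cre was counted in the library labelled cKO cage female replicate 3, against 7 to 42 counts in the other cKO libraries, and 2731 eGFP counts, with no Cre, were found in the one labelled WT running male replicate 2. Prkaa1 averaged 18.6 ± 2.32 CPM in cKO running and 23.1 ± 6.05 CPM in WT running (SD, n = 6 each), and 17.5 ± 2.38 CPM in cKO cage (n = 6) against 23.0 ± 5.94 CPM in WT cage (n = 7). It was not called between genotypes (edgeR, adjusted p = 0.464 in runners and 1 at cage activity), and a count over the whole gene does not show a deleted exon.

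The 39 genes covered a wide range of levels. On the deposited FPKM scale, which divides by transcript length and so allows genes to be set side by side, Fabp3 led with a mean of 1068 ± 337 FPKM over the 25 libraries (SD). It encodes the fatty acid binding protein of heart and skeletal muscle. Cd36 followed at 209 ± 63.2 FPKM, then Etfb at 199 ± 41.3 FPKM, the small subunit of the electron transfer flavoprotein, and Acadm at 189 ± 46.2 FPKM, the medium-chain acyl-CoA dehydrogenase. Of the carnitine palmitoyltransferases that open the shuttle, the muscle form Cpt1b stood at 51.7 ± 14.5 FPKM and the liver form Cpt1a at 7.77 ± 2.26 FPKM. The lowest were Acot1 at 1.92 ± 1.06 FPKM, Decr2 at 1.86 ± 0.752 FPKM and Acad10 at 1.38 ± 0.537 FPKM. Among the top 4, Cd36, Etfb and Acadm lay within their spread of each other. Every member had at least 10 counts in every library.

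Counts of some members cannot be fully separated from those of other genes that share sequence with them. Windows of 50 bases in the member's longest protein-coding transcript were matched to the annotated transcripts of all other genes (GENCODE M21, GRCm38). Cpt1b shared 93.0% of its windows with Gm44502 and Etfb 67.3% with Gm45233, and each overlaps its partner on the same strand. Hadhb shared 61.5% with Gm13910. Smaller shares were 34.0% of Acaa1a with Acaa1b, 29.2% of Fabp3 with the pseudogene Fabp3-ps1 and 20.4% of Acad10 with Acad12. Of these partners, Gm44502 was counted at 1.48 CPM on average and Acaa1b at 1.37 CPM, while Fabp3-ps1 was counted at 51.5 CPM and Acad12 at 10.5 CPM. Gm45233 and Gm13910 were not found by symbol among the genes counted. Dvl2, on the opposite strand, covered 42.9% of the exonic bases of Acadvl, and the strand of the libraries is not given in the sources used here. How the counting divided such reads is not stated, and the values of these genes are to that extent uncertain.

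**Figure D1:**
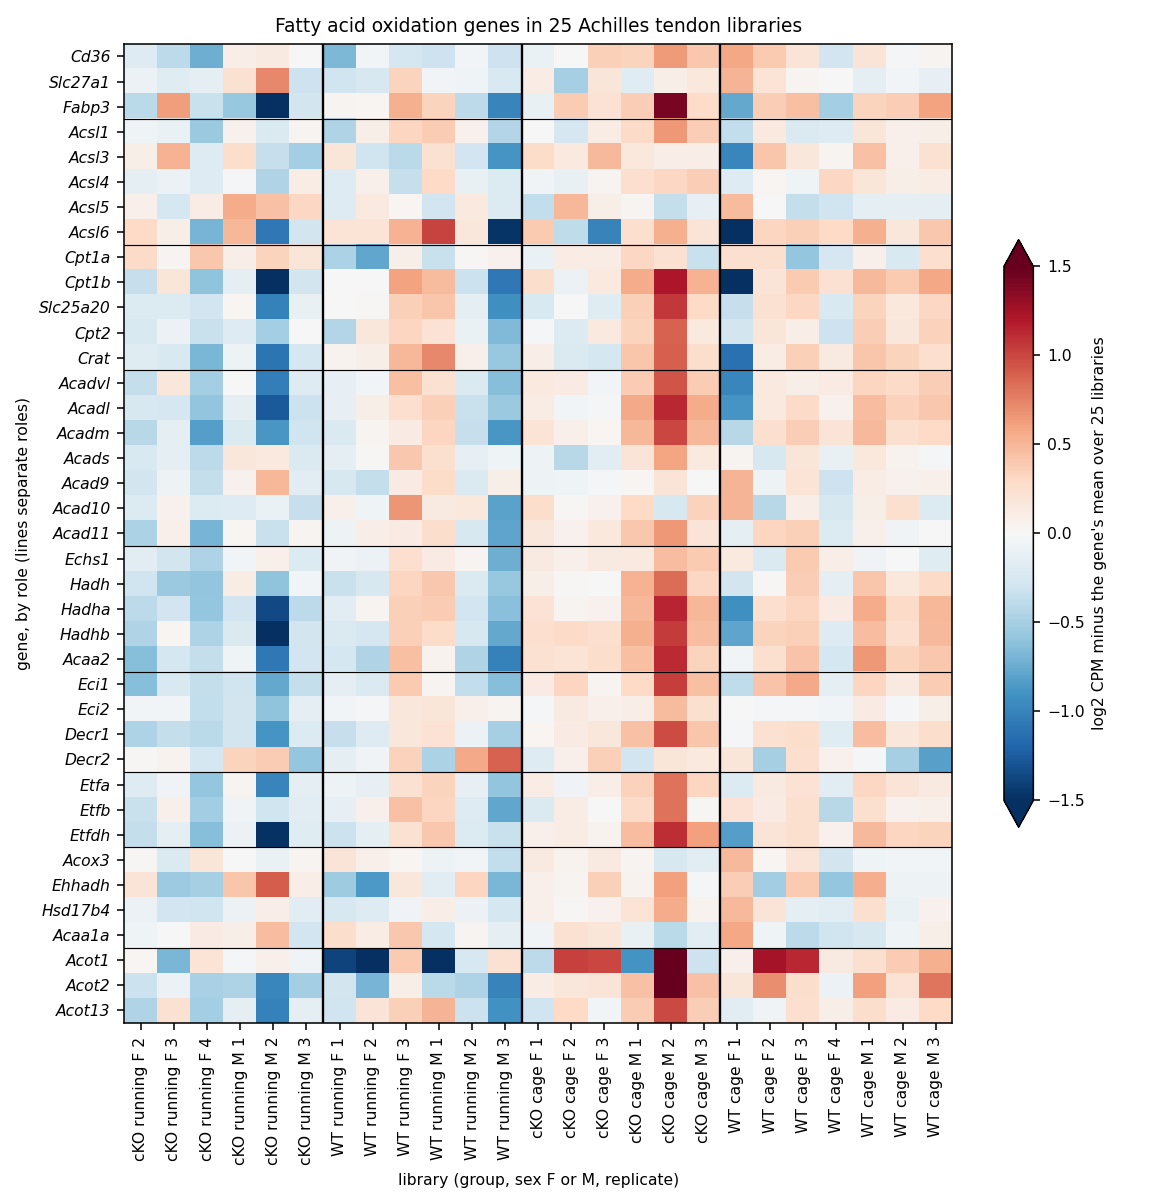
Log2 CPM of each of the 39 genes (rows, by role) in each of the 25 libraries (columns, by group), as the difference from the gene's mean over all libraries. cKO running male replicate 2 and WT running male replicate 3 were low across most rows (mean differences of -0.50 and -0.51 over the 39 genes) and cKO cage male replicate 2 was high (0.67).

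The comparison of runners with cage mice asks what wheel running does to these transcripts in the tendon, here as the mean of the cKO and WT effects. Of the 39 genes, 36 had a negative log2 fold change, with a median of -0.30, and 24 had an unadjusted p under 0.05. Over all 19155 genes tested the median was 0.01, 47.8% were negative and 2849 had an unadjusted p under 0.05. The quasi-likelihood test of edgeR called 6 of the 39 lower, beside 0.814% of all genes called lower, and 0 of the 39 higher, beside 0.611% of all genes called higher. DESeq2 called 12 lower and 0 higher, beside 632 of all genes in either direction. The same 6 as in edgeR were called by limma-voom, beside 251 of all genes. No member separated the 12 runners from the 13 cage libraries completely, beside 0.0261% of all genes that did. In bulk tissue, fewer cells of a type and less RNA per cell cannot be told apart.

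Levels of muscle RNA and mitochondrial rRNA are given beside the running result, although none of the 25 fibre genes (1 with an unadjusted p under 0.05) and neither mitochondrial rRNA (none under 0.05) was called by edgeR. The muscle level, the mean log2 CPM of the 25 fibre genes centred on 0, averaged -0.228 ± 0.881 in runners (SD, n = 12) and 0.212 ± 0.661 in cage mice (n = 13). The rRNA share averaged 20.8% ± 4.61 in runners and 24.4% ± 3.86 in cage mice. The share of counts from fibre genes averaged 5.67% ± 1.91 in runners and 5.58% ± 1.38 in cage mice. By genotype, runners against cage had a negative value for 25 of the 25 fibre genes in cKO (median -0.54) and a positive value for 22 of 25 in WT (median 0.25). With the muscle level as a covariate, edgeR called 10 of the 39 lower in runners, the 6 above with Acadl, Etfdh, Hadha and Hadhb. With the rRNA share as a covariate it called 1, Acot2. Without WT cage female replicate 1, which had the lowest muscle level of the cage libraries, edgeR called 11 of the 39 lower. The part of either measure in the running result was not tested beyond these fits.

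Genes of uptake and binding came first in the pathway, and 1 of 3 was called. Cd36 (ENSMUSG00000002944, chromosome 5, 17781690 to 17888801, GRCm38) encodes the membrane carrier of long-chain fatty acids. Its lowest, median and highest CPM were 222, 347 and 406 in cKO running, 231, 303 and 359.6 in WT running, 345, 471 and 577 in cKO cage and 302, 422 and 553 in WT cage. All 12 runners lay below the cage median of 424, 5 of them below every cage library, and 8 of 13 cage libraries lay above every runner. Runners against cage gave a log2 fold change of -0.46 ± 0.11 (SE, adjusted p = 0.0404). It was called in 6 of 15 alternative analyses, with an adjusted p of 0.00276 to 0.459 over the 15. Leaving out 1 library gave an adjusted p of 0.0259 to 0.0902 and ended the call for 16 of 25 libraries, all except cKO running males 1 and 2, WT running female 2, cKO cage females 1 and 2, WT cage females 1 and 4 and WT cage males 2 and 3. Deposited FPKM values of Cd36 averaged 221 ± 95.1 in cKO running and 222 ± 36.9 in cKO cage (SD, n = 6 each), and 171 ± 38.9 in WT running (n = 6) and 219.5 ± 64.6 in WT cage (n = 7).

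Fabp3 (ENSMUSG00000028773) ran to a wider spread. Its lowest, median and highest CPM were 146, 460.3 and 912 in cKO running, 298, 608 and 858 in WT running, 548, 742 and 1587 in cKO cage and 349, 763 and 904 in WT cage. The groups overlapped through most of their range, and 10 of 12 runners lay below the cage median. Its log2 fold change was -0.51 ± 0.23, which was not called (adjusted p = 0.294). Slc27a1, a fatty acid transport protein with acyl-CoA synthetase activity, had -0.04 ± 0.11.

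None of the 5 long-chain acyl-CoA synthetases was called by edgeR, DESeq2 or limma-voom, and 1 of them (Acsl4) had an unadjusted p under 0.05. Acsl1, the main synthetase of muscle and fat, had lowest, median and highest CPM of 186, 259 and 286 in cKO running, 199.8, 289 and 356 in WT running, 231, 316 and 430.2 in cKO cage and 212, 289 and 310.5 in WT cage, which overlap. Its log2 fold change was -0.14 ± 0.11 (adjusted p = 0.562). Acsl3 had -0.26 ± 0.14, Acsl4 -0.20 ± 0.08, Acsl6 -0.04 ± 0.23 and Acsl5 0.13 ± 0.11, the last being among the 3 members with a positive value.

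The carnitine shuttle held no called gene by any of the 3 tools, while 3 of its 5 genes had an unadjusted p under 0.05. Cpt1b (ENSMUSG00000078937, chromosome 15, 89416405 to 89425863), the muscle form of the enzyme that AMPK is known to free from malonyl-CoA, had lowest, median and highest CPM of 35.7, 104 and 146 in cKO running, 61.4, 128 and 195 in WT running, 121, 169 and 298 in cKO cage and 45.2, 169 and 192 in WT cage. The cage libraries reached as low as the runners through WT cage female replicate 1, which also had the lowest muscle level of its group (-1.53). The log2 fold change was -0.52 ± 0.22 (adjusted p = 0.263), and -0.22 ± 0.11 with the muscle level as a covariate. Cpt1a, the liver form, had lowest, median and highest CPM of 28.5, 32.6 and 36.7 in cKO running, 16.1, 25.1 and 29.3 in WT running, 22, 29.8 and 34.2 in cKO cage and 18.5, 29.1 and 32.9 in WT cage. All 4 groups overlapped, and its log2 fold change was -0.02 ± 0.11. The carnitine-acylcarnitine carrier Slc25a20 had -0.32 ± 0.15, the inner-membrane transferase Cpt2 -0.30 ± 0.12 and the acetyltransferase Crat -0.27 ± 0.16.

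Among the 7 acyl-CoA dehydrogenases, which open each round of oxidation, 1 was called and all 7 had negative values. Acadm (ENSMUSG00000062908, chromosome 3, 153922357 to 153944632) acts on medium chains. It had lowest, median and highest CPM of 104, 149 and 173 in cKO running, 104, 179.5 and 238 in WT running, 194, 244 and 381 in cKO cage and 143, 225 and 266 in WT cage. The 6 cKO runners all lay below the 6 cKO cage libraries, whereas WT runners and WT cage libraries overlapped. Of the other called genes, Acaa2, Eci1, Decr1 and Acot2 were also separate in cKO, and Cd36 was not. The share of all genes that separate in this way within cKO was not counted, here or for the genes below. Over both genotypes the log2 fold change was -0.59 ± 0.13 (adjusted p = 0.0233), and 11 of 12 runners lay below the cage median. It was called in 11 of 15 alternative analyses (adjusted p up to 0.587). The call was lost without cKO running female 4, WT running male 2 or cKO cage male 2, each left out in turn (adjusted p of at most 0.0562 over the 25 such fits).

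The other dehydrogenases were not called by edgeR, and DESeq2 called Acadl. Acadl, the long-chain enzyme, had -0.51 ± 0.15 (adjusted p = 0.101), and Acad11 had -0.31 ± 0.11. Acadvl, the very long-chain enzyme, had lowest, median and highest CPM of 77.4, 132 and 178 in cKO running, 102, 150.2 and 217 in WT running, 154, 190.3 and 305 in cKO cage and 80.4, 176 and 204 in WT cage, with a log2 fold change of -0.36 ± 0.15 (adjusted p = 0.255). Its groups overlapped, with 9 of 12 runners below the cage median. The short-chain enzyme Acads had -0.06 ± 0.09, Acad9, also an assembly factor of respiratory complex I, -0.10 ± 0.09 and Acad10 -0.13 ± 0.14.

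Of the 5 enzymes of hydration, second oxidation and thiolysis, all 5 had an unadjusted p under 0.05, edgeR called 1 and DESeq2 called 4. Acaa2 (ENSMUSG00000036880) encodes the mitochondrial 3-ketoacyl-CoA thiolase, the last step of a round. Its lowest, median and highest CPM were 46.1, 77.7 and 93.0 in cKO running, 48.1, 75.9 and 133 in WT running, 112, 119.8 and 210.2 in cKO cage and 81.1, 122 and 153 in WT cage. Of the 12 runners, 9 lay below every cage library, and the 6 cKO runners all lay below the 6 cKO cage libraries. Its log2 fold change was -0.68 ± 0.15 (adjusted p = 0.0154), and it was called in 12 of 15 alternative analyses (adjusted p up to 0.528) and in all 25 fits that left out 1 library.

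Hadha and Hadhb encode the alpha and beta chains of the mitochondrial trifunctional protein, which carries out the last 3 steps on long chains, and they had nearly the same values. Hadha had lowest, median and highest CPM of 96.3, 187 and 201 in cKO running, 159.6, 237 and 319 in WT running, 254, 315 and 542 in cKO cage and 129.5, 299.9 and 363 in WT cage. Its 6 cKO runners lay below the 6 cKO cage libraries, and the WT groups overlapped. The log2 fold changes were -0.58 ± 0.16 for Hadha and -0.59 ± 0.16 for Hadhb, neither called by edgeR (adjusted p = 0.0621 and 0.0673) and both called by DESeq2. The 2 genes lie head to head on chromosome 5, Hadha at 30118304 to 30155162 on the minus strand and Hadhb at 30155248 to 30184593 on the plus strand (GRCm38, GENCODE M21). The 85 bases between their starts are shown because both are transcribed away from them. They lie at chr5:30155163-30155247, 69.4% of them G or C, and are printed on the plus strand from the RefSeq promoter table of GRCm38.p6.
Hadha-Hadhb gap: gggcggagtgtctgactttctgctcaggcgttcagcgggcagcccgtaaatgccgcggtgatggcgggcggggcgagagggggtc
Hadh, the short-chain hydroxyacyl-CoA dehydrogenase, had -0.42 ± 0.11 (adjusted p = 0.0681) and Echs1, the short-chain hydratase, -0.24 ± 0.09 (adjusted p = 0.223).

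Auxiliary enzymes that let unsaturated chains into the cycle held 2 of the 6 called genes, out of 4. Decr1 (ENSMUSG00000028223, chromosome 4, 15917240 to 15945507) encodes the mitochondrial 2,4-dienoyl-CoA reductase. It had lowest, median and highest CPM of 37.7, 53.6 and 60.5 in cKO running, 49.5, 63.6 and 80.9 in WT running, 71.5, 85.6 and 137 in cKO cage and 61.7, 81.7 and 96.3 in WT cage. All 12 runners lay below the cage median and 9 lay below every cage library. The log2 fold change was -0.54 ± 0.10 (adjusted p = 0.00645), and it was called in 12 of 15 alternative analyses (adjusted p up to 0.415) and in all 25 fits that left out 1 library.

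Eci1 (ENSMUSG00000024132, chromosome 17, 24426641 to 24439348), a mitochondrial enoyl-CoA isomerase, had lowest, median and highest CPM of 23.7, 31.3 and 34.4 in cKO running, 25.8, 35.6 and 52.7 in WT running, 41.4, 50 and 82.5 in cKO cage and 30.9, 50.5 and 59.9 in WT cage. The 6 cKO runners lay below the 6 cKO cage libraries, and 11 of 12 runners lay below the cage median. The log2 fold change was -0.59 ± 0.13 (adjusted p = 0.0149), called in 13 of 15 alternative analyses (adjusted p up to 0.623) and in all 25 fits that left out 1 library. The paralog Eci2, found in peroxisomes as well, had -0.18 ± 0.07, and Decr2, the peroxisomal reductase, had 0.18 ± 0.16, neither called.

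Electron transfer and peroxisomal genes held no call by edgeR or limma-voom, and DESeq2 called Etfdh and Hsd17b4. Of the 3 electron transfer genes, 2 had an unadjusted p under 0.05: Etfdh, which passes electrons on to ubiquinone, at -0.52 ± 0.15 (adjusted p = 0.0836) and Etfa at -0.35 ± 0.12 (adjusted p = 0.146). Etfb had -0.25 ± 0.12. Of the 4 peroxisomal genes, Hsd17b4, the D-bifunctional protein, had -0.27 ± 0.08 (adjusted p = 0.0982). Ehhadh, the L-bifunctional enzyme, had -0.18 ± 0.16, the branched-chain oxidase Acox3 -0.04 ± 0.07 and the thiolase Acaa1a 0.11 ± 0.10.

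The thioesterases, which split acyl-CoA back to free fatty acid, held the lowest log2 fold changes of the 39. Acot2 (ENSMUSG00000021226, chromosome 12, 83987861 to 83993873), the mitochondrial enzyme, had lowest, median and highest CPM of 7.53, 10.7 and 14.0 in cKO running, 7.45, 11.0 and 15.8 in WT running, 16.1, 18.6 and 43.6 in cKO cage and 14.0, 17.9 and 26.0 in WT cage. Of the 12 runners, 10 lay below every cage library, and 12 of the 13 cage libraries lay above every runner. The log2 fold change was -0.93 ± 0.16 (adjusted p = 0.00327), rank 17 of the 19155 genes by p, and -0.79 ± 0.13 and -0.70 ± 0.16 with the muscle level and the rRNA share as covariates. It was called in 14 of 15 alternative analyses and in all 25 fits that left out 1 library.

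Acot1 (ENSMUSG00000072949, chromosome 12, 84009490 to 84018371), the cytosolic paralog next to it, had a similar value with a larger error. Its lowest, median and highest CPM were 1.03, 1.66 and 1.91 in cKO running, 0.305, 1.02 and 2.17 in WT running, 0.888, 2.33 and 5.26 in cKO cage and 1.74, 2.15 and 3.91 in WT cage. The log2 fold change was -0.92 ± 0.31 (adjusted p = 0.146), and 11 of 12 runners lay below the cage median. Acot13, a mitochondrial thioesterase of another fold, had -0.37 ± 0.15 (adjusted p = 0.244). The Acot1 and Acot2 counts are not fully separate: Acot1 shared 23.9% of its 50-base windows with Acot2, and Acot2 shared 24.5% with Acot1. The longest identical run is printed because reads inside it fit both genes. It is 273 bases long, at bases 887 to 1159 of the 1257 coding bases of Acot1 and 1010 to 1282 of the 1359 of Acot2, counted from the start codon (GENCODE M21, GRCm38).
Acot1 and Acot2 shared coding stretch: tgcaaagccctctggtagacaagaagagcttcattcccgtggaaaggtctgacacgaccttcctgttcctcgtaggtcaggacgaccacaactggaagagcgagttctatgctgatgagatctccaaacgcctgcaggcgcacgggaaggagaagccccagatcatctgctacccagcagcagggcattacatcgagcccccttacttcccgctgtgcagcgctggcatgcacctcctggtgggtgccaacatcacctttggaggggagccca

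**Figure D2:**
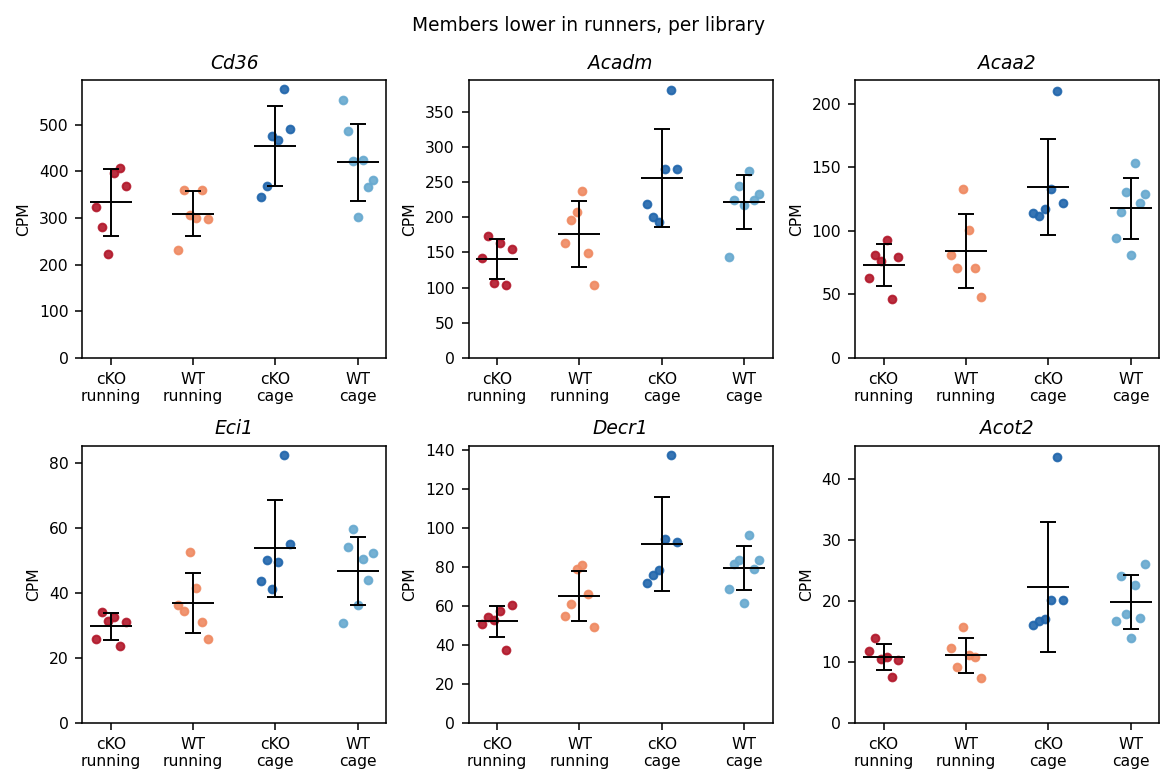
CPM per library (points) of the 6 genes called lower in runners, in the 4 groups, with the mean (wide bar) and SD (error bars). Acot2 stood at 7.45 to 15.8 CPM in the 12 runners and at 14.0 to 43.6 CPM in the 13 cage libraries, and cKO cage male replicate 2 was the highest library for all 6 genes.

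Running was next compared with cage activity inside each genotype, which asks whether the change is present in mice of each genotype. In cKO, 35 of the 39 genes were negative, with a median log2 fold change of -0.46 against 0.03 over all genes. An unadjusted p under 0.05 was found for 26 of the 39 and for 2596 of all 19155 genes. Other lists had medians as low or lower in cKO: -0.58 for the citric acid cycle (12 of 12 negative), -0.50 for oxidative phosphorylation (21 of 21) and -0.54 for the fibre genes (25 of 25). Decr1 was called at -0.79 ± 0.15 (adjusted p = 0.0339), 1 of the 39 beside 0.0104% of all genes called lower. DESeq2 called 11 and limma-voom 0, beside 215 and 3 of all genes, and 9 of 15 alternative analyses ended the Decr1 call. In WT, an unadjusted p under 0.05 was found for 5 of the 39 and for 1866 of all 19155 genes. Of the 39, 30 were negative, with a median of -0.16 against 0.00 over all genes. Leaving out WT running female replicate 3 gave a median of -0.25, leaving out WT running male replicate 3 gave -0.05, and with the rRNA share as a covariate it was -0.04, with 22 negative. None of the 39 was called by edgeR in WT, beside 0.131% of all genes called. DESeq2 called 1 in WT, Acot2, beside 161 of all genes. The cKO call of Decr1 was lost without any single one of the 12 cKO libraries, WT running female 2 or WT cage male 3 (adjusted p of 0.0218 to 0.148 over the 25 fits that left out 1 library). Counts of eGFP were 2523 to 5122 in the 6 cKO running libraries, 3292 and 4857 in 2 of the cKO cage libraries and 0 to 64 in the other 4, and the part of the reporter in the cKO comparison was not tested.

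Single genes showed both patterns. Cd36 had nearly equal values, -0.45 ± 0.16 in cKO and -0.46 ± 0.16 in WT. Acot2 had -1.02 ± 0.22 in cKO and -0.83 ± 0.22 in WT. Hadha had -0.94 ± 0.23 in cKO and -0.22 ± 0.22 in WT, Acadl -0.84 ± 0.22 in cKO and -0.18 ± 0.21 in WT, and Cpt1b -0.86 ± 0.32 in cKO and -0.17 ± 0.30 in WT. Crat had -0.61 ± 0.23 in cKO and 0.06 ± 0.22 in WT. These are values of 2 separate comparisons, and the test of their difference is the interaction.

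**Figure D3:**
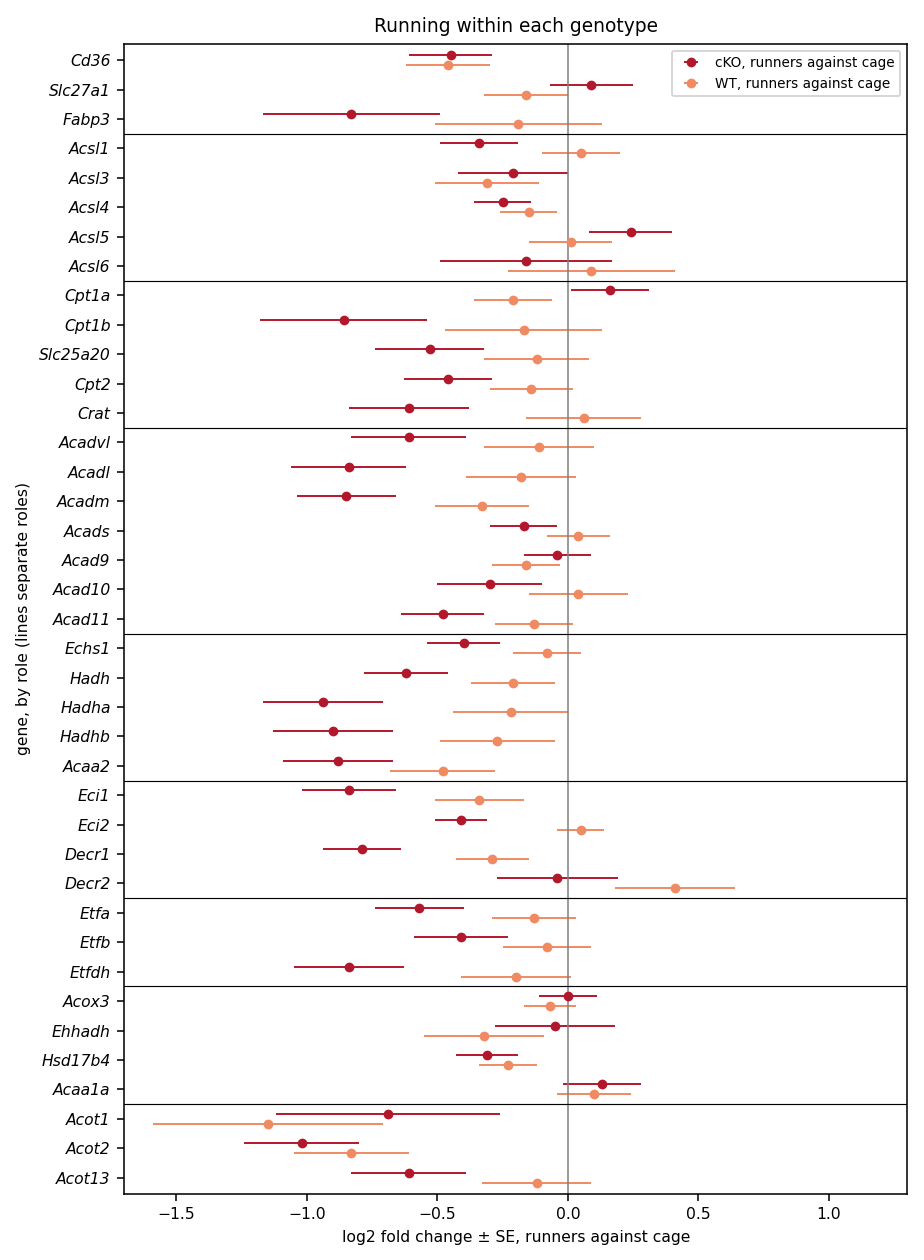
Log2 fold change of runners against cage (points, with bars of 1 SE) for each of the 39 genes, in cKO and in WT. Most cKO points lie to the left of the WT points, as for Hadha at -0.94 in cKO and -0.22 in WT, and the bars of most pairs are wide.

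The interaction subtracts the WT running effect from that in cKO. No gene was called, neither of the 39 nor of all 19155 by edgeR (0.0%). Of the 39, 29 were negative with a median of -0.35, beside 0.02 over all genes, and 6 had an unadjusted p under 0.05 (edgeR; 8 with DESeq2 and 4 with limma-voom, which called none of the 39). Over all genes, 1377 had an unadjusted p under 0.05. The smallest p among the 39 was that of Eci2, at -0.46 ± 0.14 (edgeR, adjusted p = 0.672). Decr1 had -0.51 ± 0.20, Hadha -0.72 ± 0.31 and Acot2 -0.19 ± 0.31. The muscle level averaged -0.512 ± 0.926 in cKO running and 0.055 ± 0.811 in WT running (SD, n = 6 each), and 0.257 ± 0.583 in cKO cage (n = 6) and 0.174 ± 0.766 in WT cage (n = 7). With the muscle level as a covariate the median interaction of the 39 was -0.17.

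Genotype was compared within each activity, which asks whether these genes differ between cKO and WT mice. At cage activity, cKO libraries had positive values for 34 of 39 genes, with a median log2 fold change of 0.15 beside 0.00 over all genes. It was 0.05 without cKO cage male replicate 2, and 0.04 in females alone, with 24 positive. The citric acid cycle (12 of 12 positive) and oxidative phosphorylation (21 of 21) each had a median of 0.14. None of the 39 had an unadjusted p under 0.05 with edgeR, DESeq2 or limma-voom, and edgeR called no gene of the 19155 (0.0%), of which 217 had an unadjusted p under 0.05. In runners, 29 of 39 were negative in cKO, with a median of -0.22 beside 0.01 over all genes. All 25 fibre genes were negative in the same comparison, with a median of -0.69, and with the muscle level as a covariate the median of the 39 was -0.04. It was -0.13 without cKO running male replicate 2 and -0.10 without WT running female replicate 3. Of the 39, 5 had an unadjusted p under 0.05 with each of the 3 tools and none was called, as were none of all genes by edgeR (0.0%), of which 2173 had an unadjusted p under 0.05. These 5 were Eci2 at -0.30 ± 0.10, Cpt1a at 0.44 ± 0.15, Crat at -0.58 ± 0.23, Hadha at -0.50 ± 0.23 and Decr1 at -0.32 ± 0.15, with edgeR adjusted p between 0.387 and 0.433. Both genotype comparisons share their libraries with the running comparisons, and an adjusted p above the threshold does not show equal levels.

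Between the sexes none of the 39 genes was called. Males against females gave 0 calls among them by edgeR, DESeq2 and limma-voom, beside 0.616% of all genes called by edgeR. By edgeR, 4 of the 39 and 1932 of all 19155 genes had an unadjusted p under 0.05. These 4 were Hadh at 0.28 ± 0.11 (adjusted p = 0.384), Acsl1 at 0.24 ± 0.11 (adjusted p = 0.433), Acads at 0.21 ± 0.09 (adjusted p = 0.419) and Acox3 at -0.17 ± 0.07 (adjusted p = 0.409). Within the sexes, runners against cage had a median over the 39 of -0.42 in males and -0.13 in females, with 31 and 32 negative. Of the 39, 2 were called in males (Acot2 and Eci1), beside 102 of all 19667 genes tested in males. In females 0 were called, beside 8 of all 19432, and the difference between the sexes was not tested.

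The Achilles tendon joins the calf muscles, and the level of fibre RNA varied within each group. In a fit with group, sex and muscle level, the slope gives how many log2 units a gene changed for each log2 unit of muscle level. Of the 39, edgeR called 25 with a positive slope, beside 17.1% of all genes called positive, and 2 with a negative slope, beside 14.0% of all genes called negative. The median slope was 0.24. The steepest were Cpt1b at 0.75 ± 0.08 (SE, adjusted p = 7.15e-08), Acsl6 at 0.71 ± 0.11, Fabp3 at 0.68 ± 0.10 and Crat at 0.52 ± 0.06. Hadhb had 0.51 ± 0.06, Hadha 0.50 ± 0.06, Etfdh 0.49 ± 0.05, Acadvl and Acadl 0.48 ± 0.05 and 0.48 ± 0.06, Acot13 0.42 ± 0.06, Acadm 0.39 ± 0.05 and Etfa 0.32 ± 0.05. The negative slopes were those of Acaa1a at -0.22 ± 0.05 and Acsl5 at -0.20 ± 0.07.

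Slopes of the 6 genes called lower in runners ran from -0.08 to 0.39, the highest being that of Acadm. Acaa2 had a slope of 0.33 ± 0.08, Acot2 0.32 ± 0.09, Eci1 0.30 ± 0.06 and Decr1 0.24 ± 0.05. Cd36 had -0.08 ± 0.07, which was not called (adjusted p = 0.429), and Cpt1a likewise had -0.08 ± 0.07. Of the genes with steeper slopes than Acadm, Acsl6 had a log2 fold change of -0.04 ± 0.23 with running and Crat -0.27 ± 0.16. Hadhb had -0.59 ± 0.16, Hadha -0.58 ± 0.16, Etfdh -0.52 ± 0.15 and Acadl -0.51 ± 0.15, as low as several called genes. Acot13 had -0.37 ± 0.15, Acadvl -0.36 ± 0.15 and Slc25a20 -0.32 ± 0.15. Fabp3 at -0.51 ± 0.23 and Cpt1b at -0.52 ± 0.22 had values near those of the called Cd36 and Decr1, with larger errors. With the muscle level held in the fit, running gave -0.43 ± 0.07 for Acadm, -0.55 ± 0.11 for Acaa2, -0.44 ± 0.08 for Decr1, -0.45 ± 0.10 for Eci1 and -0.49 ± 0.11 for Cd36, with adjusted p between 0.00147 and 0.0102.

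**Figure D4:**
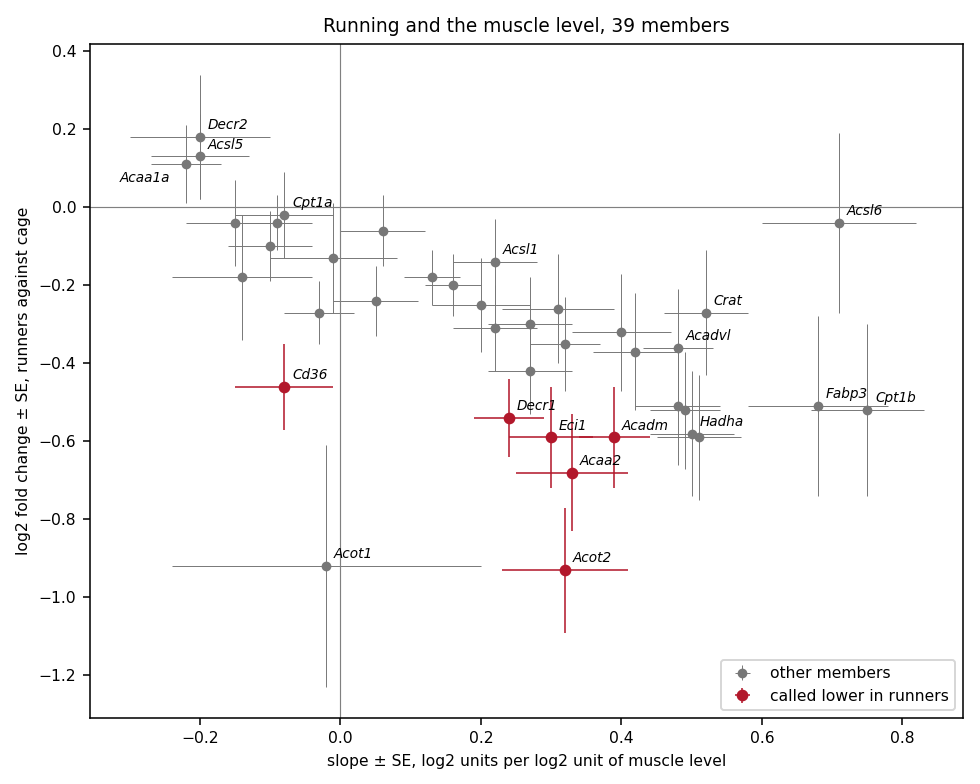
Each of the 39 genes as a point, with its slope on the muscle level (horizontal, log2 units per log2 unit) and its log2 fold change of runners against cage (vertical), both with bars of 1 SE. The 6 called genes, coloured, lie at slopes between -0.08 and 0.39, while Cpt1b and Fabp3 lie to the right at 0.75 and 0.68.

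**Figure D5:**
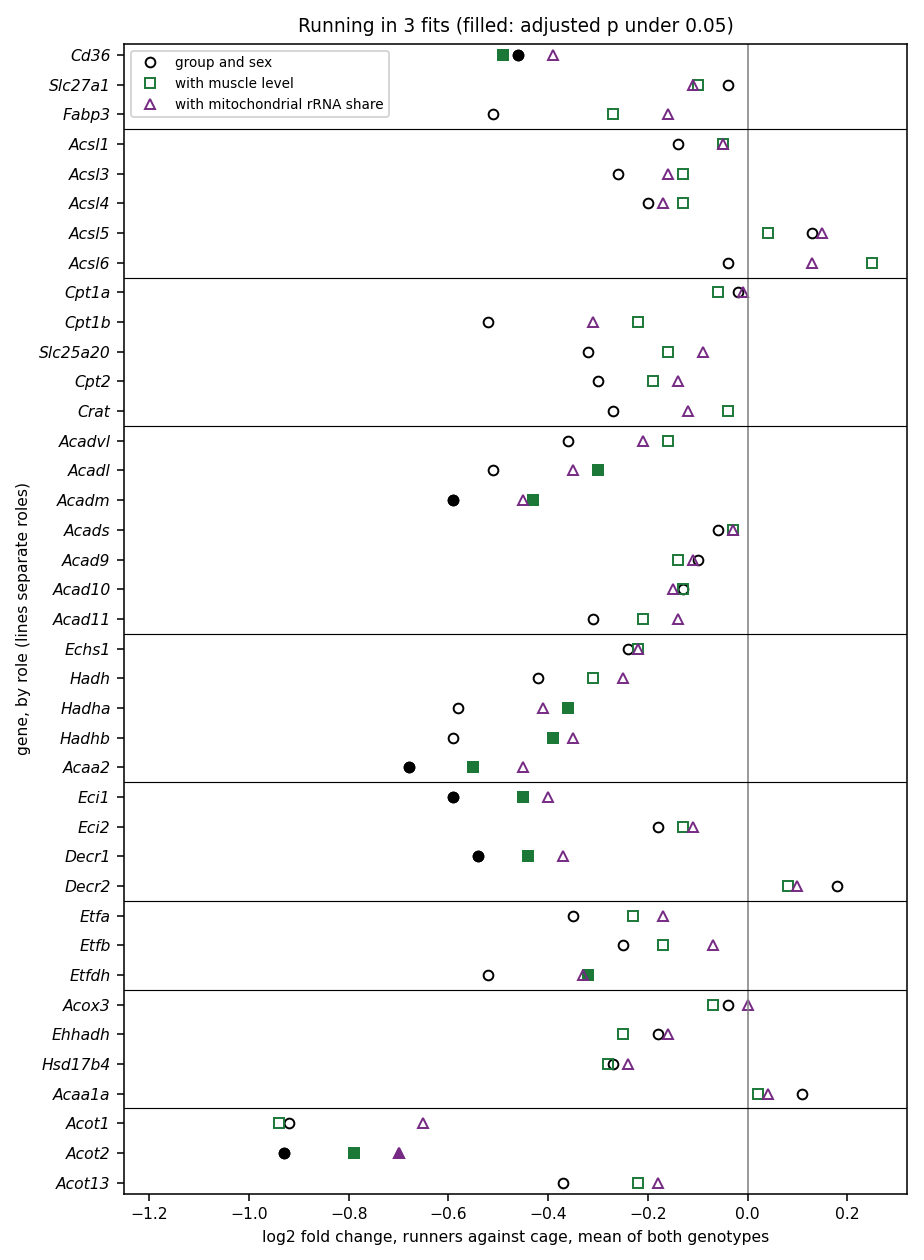
Log2 fold change of runners against cage for each of the 39 genes in 3 fits: with group and sex (circles), with the muscle level added (squares) and with the mitochondrial rRNA share added (triangles), filled where edgeR called the gene. Filled symbols number 6, 10 and 1 in the 3 fits, beside 273, 486 and 71 of all genes called, and Acot2 is filled in each.

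Other genes of the pathway and its control were taken from lists set beside the 39. Of 14 regulators of oxidation, 1 was called lower, beside 0.814% of all genes, and none higher, beside 0.611%. The called gene was Ppargc1a, a coactivator of mitochondrial genes that exercise is known to induce in muscle. It averaged 16.6 ± 4.86 CPM in cKO running and 20.2 ± 6.03 CPM in WT running (SD, n = 6 each), against 36.7 ± 12.1 CPM in cKO cage (n = 6) and 33.8 ± 18.4 CPM in WT cage (n = 7), with a log2 fold change of -0.95 ± 0.19 (adjusted p = 0.00988). Ppara, the nuclear receptor that binds fatty acids, had -0.84 ± 0.22 (adjusted p = 0.0548). Of the 14, 12 were negative, with a median of -0.22.

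Of 9 further genes known as targets of the PPAR receptors, 2 were called lower and 1 higher, beside 0.814% and 0.611% of all genes. Pdk4, the kinase that turns pyruvate dehydrogenase off, averaged 179.5 ± 87.4 CPM in cKO running and 289 ± 155 CPM in WT running, against 663 ± 558 CPM in cKO cage and 631 ± 303 CPM in WT cage, with -1.44 ± 0.33 (adjusted p = 0.024). Lpl, the lipase that frees fatty acids from lipoproteins, had -0.51 ± 0.13 (adjusted p = 0.0431). Ucp2, an inner-membrane carrier, went the other way at 0.90 ± 0.16 (adjusted p = 0.00488), with 69.2 ± 20.2 and 94.4 ± 29.1 CPM in cKO and WT runners against 46.4 ± 12 and 40.2 ± 11.7 CPM in cKO and WT cage mice.

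Of 31 other oxidation enzymes tested, 2 were called lower, beside 0.814% of all genes. They were the isomerase Ech1 at -0.58 ± 0.12 (adjusted p = 0.0149) and the acetyl-CoA synthetase Acss1 at -0.63 ± 0.16 (adjusted p = 0.0498). Of 3 genes of ketone use, the thiolase Acat1 was called lower at -0.52 ± 0.12 (adjusted p = 0.0288), beside the same 0.814% of all genes. The 10 genes of malonyl-CoA and AMPK and the 5 of lipolysis held no call by edgeR, DESeq2 or limma-voom, with 1 unadjusted p under 0.05 in each list by edgeR. Acacb, the carboxylase that makes malonyl-CoA at the mitochondrion, had -0.17 ± 0.20, and Prkaa1 had 0.04 ± 0.12.

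Mitochondrial genes outside fatty acid oxidation were set beside the 39. None of 12 genes of the citric acid cycle and none of 21 nuclear subunits of oxidative phosphorylation was called in runners by edgeR, DESeq2 or limma-voom. By edgeR, 5 and 2 of them had an unadjusted p under 0.05, and 0.814% of all genes were called lower. All 12 and all 21 were negative, with medians of -0.28 and -0.21, against -0.30 for the 39. With the muscle level as a covariate the medians were -0.09 for the citric acid cycle, -0.04 for oxidative phosphorylation and -0.21 for the 39. With the rRNA share as a covariate they were -0.16, -0.05 and -0.16 in the same order, in males alone -0.53, -0.50 and -0.42, and in females alone 0.00, 0.06 and -0.13. Which list was lowest thus changed with the setting, and the difference between the lists was not tested.

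Among markers of other cell types, none of the macrophage, adipocyte, endothelial or tenocyte genes was called in runners by edgeR or limma-voom. By edgeR, 0.814% of all genes were called lower and 0.611% higher. DESeq2 called 2 macrophage genes higher, beside 632 of all genes in either direction. All 6 macrophage genes were positive, with a median of 0.52 and 5 unadjusted p under 0.05, and summed levels of 215 to 598 CPM in cKO running, 179 to 455 CPM in WT running, 168 to 457 CPM in cKO cage and 147 to 443 CPM in WT cage. The 8 adipocyte genes had a median of 0.08, with no unadjusted p under 0.05, and all were counted in each group. Cd36 and Lpl are expressed by adipocytes and endothelial cells as well, and the part of those cells in their values was not tested.

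Promoters of the members were searched for motifs of receptors that control this pathway and for the NRF1 motif. The RefSeq table of GRCm38.p6 was used, which gives 250 bases before to 50 bases after each start. Of the 39 genes, 32 matched the table, with 37 promoters. On both strands, AGGTCA, 1 free base and AGGTCA again, the repeat bound by PPAR receptors with RXR, was found in 0 of them and in 0.04% of all 32851 promoters. The looser AGGNCA, 1 free base and AGGNCA again, which includes it, was found in 0 and in 0.381% of all. TCAAGGTCA, a half-site of estrogen-related receptors, was found in 1 (Acsl6) and in 0.423% of all. GCGCA, 1 free base and GCGC, the NRF1 motif, was found in 3 of the 37 promoters (Acad10, Etfb and Etfdh) and in 4.603% of all. The Acsl6 match, on the minus strand, is shown in capitals within 60 bases of its promoter at chr11:54303632-54303691, plus strand, as the sole match to a receptor motif among the 32 members searched.
Acsl6 promoter stretch: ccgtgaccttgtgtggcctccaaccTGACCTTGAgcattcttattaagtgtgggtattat
The gap between Hadha and Hadhb printed above held none of the 4 motifs. Acsl6 itself was not called in runners.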

How the data were processed

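The authors deposited expected counts per gene and library, whole numbers throughout the table, and FPKM values per gene in a second table. Both hold 25 columns of these libraries. The build GRCm38 (mm10), RSEM 1.3.3, STAR 2.7.8a, cutadapt 2.3 and FastQC 0.11.8 are named, without a role, per the submitters' processing notes. The annotation release is not given in the sources used here. Per the labels' protocols, pulverised tissue was extracted with TRIzol and spin columns before library preparation.

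The expected counts as deposited were analysed with edgeR 4.0.16 in R 4.3.3, after leaving out 4 reporter entries: filterByExpr on the 4 groups, TMM scaling, group means and sex in 1 fit of all 25 libraries, quasi-likelihood F-tests. P-values are two-sided and adjusted by Benjamini-Hochberg over the 19155 genes, with calls under 0.05. SE is that of the log2 fold change. The script was tested on simulated data. Alternatives used DESeq2 1.42.0, limma 3.58.1 (voom, and log2 FPKM with 1 or 0.1 added), RLE factors, no filter, covariates, a replicate block, no sex term and subsets of libraries. With totals of 13193228 to 45724243 counts, a member's lowest count was 10, and counting error alone is then large for Acot1.

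Members and lists were chosen with earlier results of these data known. Groups follow the labels. All 39 members may be named. Values per library are given for members called in runners and for Cpt1a, Cpt1b, Cd36, Fabp3, Acsl1, Acadvl, Hadha and Acot1, and the 12 of smallest p on the muscle level are given with their slopes. Of other lists, called genes and Ppargc1a, Ppara, Pdk4, Acacb and Prkaa1 are named.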

Additional observations from a re-analysis of the deposited data

Results flagged for a closer look

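Values per library of 20 members were screened in the 4 groups for a library far from the rest, by the gap to its nearest neighbour over the range of the group. Of 80 such groups, 18 held an outlying library, where chance flags about 1 in 20. Most of the flags came from 2 libraries. cKO cage male replicate 2 was the highest of its group for Fabp3 (1587 CPM), Acadvl (305 CPM), Hadha (542 CPM), Hadhb (275 CPM), Acaa2 (210.2 CPM), Eci1 (82.5 CPM), Decr1 (137 CPM) and Acot2 (43.6 CPM, with the next library at 20.2 CPM). WT cage female replicate 1 was the lowest of its group for Acsl6 (3.33 CPM), Cpt1b (45.2 CPM), Crat (68.4 CPM), Acadvl (80.4 CPM), Acadl (103 CPM), Acadm (143 CPM), Hadha (129.5 CPM) and Etfdh (45.8 CPM). The muscle level was 1.16 in the first, the highest of its group, and -1.53 in the second, the lowest of its group. Among runners, Hadha was low in cKO running male replicate 2 (96.3 CPM), whose muscle level of -2.11 was the lowest of all, and Acot1 was low in cKO running female replicate 3 (1.03 CPM). Acot2 kept its call without cKO cage male replicate 2 and without WT cage female replicate 1.

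A reporter outside the gene tests was counted where the label gives none. The library labelled WT running male replicate 2 held 2731 counts of eGFP, and the other 12 WT libraries held at most 1.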

How the results depend on the processing

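Without the filter on low counts 14 of the 39 genes were called in runners over both genotypes, 1 in WT and 16 in cKO, and DESeq2 called 12, 1 and 11. Over all genes these settings called 715, 197 and 574 of 42619 tested, and 632, 161 and 215 of 19155. The analysis reported called 273, 25 and 8 of 19155, and the 15 alternatives called from 8 to 715, 1 to 321 and 0 to 574. With the muscle level as a covariate the counts were 10, 1 and 3, beside 486, 321 and 19 of all genes. With the mitochondrial rRNA share they were 1, 0 and 0, beside 71, 33 and 5. Females alone gave 0, 0 and 0, with fewer libraries, beside 8, 1 and 0 of all genes. Males alone gave 2, 0 and 0, beside 102, 3 and 30. In cKO, limma-voom, limma on log2 FPKM with 1 or 0.1 added, the fit without the other library project and the fit without the 2 libraries against their label each gave 0, while the first 3 gave 6 over both genotypes and the last 2 gave 4 and 5. Without the other project, the 4 called over both genotypes were Acaa2, Acot2, Decr1 and Eci1. The replicate block gave 5, 0 and 0. Deviations from the means by group and sex correlated at -0.20 to 0.207 (median -0.0131) between same-numbered libraries. Other pairs of libraries of the same sex had -0.222 to 0.242 (median 0.00966). Pairing by replicate number was not tested further. RLE factors and the fit without the 2 runners that stood apart left the 3 counts at 6, 0 and 1. Leaving out each library gave 4 to 11 over both genotypes, 0 to 1 in WT and 0 to 5 in cKO. The 11 and the 5 came without WT cage female replicate 1 and the 1 in WT without cKO cage male replicate 2, and without WT running male replicate 3 it was 2 in cKO. Genotype, interaction and sex held no call among the 39 in any setting that was run. The median over the 39 in runners stayed negative in all 15 alternatives (-0.42 to -0.13). It turned to 0.02 in WT females alone, and that of males against females to 0.00 with the rRNA share. Among single genes, Cpt1a turned to 0.08 and 0.09 with limma on log2 FPKM, to 0.00 in males alone and, over the fits that left out 1 library, ran from -0.07 to 0.02. Fabp3 turned to 0.06 and Acsl1 to 0.00 in females alone. The cause of these changes was not tested. On log2 FPKM the median of all genes in runners shifted to 0.11 and 0.15, so the members are lower relative to it. Depth limits Acot1, at 1.98 CPM on average.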
